A study of Rattus norvegicus with 12 samples.

Results

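The genes described here were those of the rat major histocompatibility complex (MHC) and of antigen processing. They comprised all 51 rows whose symbol begins with RT1-, the name of the MHC in the rat, and 11 of 12 further genes chosen by name (B2m, Tap1, Tap2, Tapbp, Psmb8, Psmb9, Psmb10, Ciita, Cd74, Erap1 and Calr3). These 62 genes were among 17494 in the deposited count table, and Nlrc5 was not analysed here. Of the 51 RT1 rows, 41 were class I (20 of the A and C/E series and 21 of the M, N, O, S and T groups) and 10 were class II. The genes were proposed with results of the boldine comparison known, RT1-T24-3 having been among those with the smallest unadjusted p, so their differences between treatments are given as a description.

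RNA came from 12 male Long Evans rats, listed as wild type, that had received 3 blasts, 1 per day, at 10 weeks of age and were sacrificed 29 weeks after blast. In blast-boldine rats (n = 6) the chow held boldine, an alkaloid of the boldo tree, at 500 mg/kg from the second week after blast until sacrifice, and blast-controls (n = 6) ate the same chow lacking boldine. The labels give the tissue as brain, and the study's methods give it as hippocampus. No library came from a rat without blast exposure, so every value below is from a blast-exposed rat.

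MHC class I molecules display peptides made inside the cell to CD8 T cells and to natural killer cells. The peptides are cut by the immunoproteasome, carried into the endoplasmic reticulum by the TAP transporter, trimmed there by Erap1 and loaded with the help of tapasin onto a class I heavy chain paired with beta-2 microglobulin. MHC class II molecules display peptides from endosomes to CD4 T cells, are escorted by the invariant chain Cd74, are loaded with the help of the DM heterodimer and depend on the coactivator Ciita. In the brain, microglia and border macrophages are known sources of class II and cathepsin transcripts, and neurons carry little class I at rest. The RT1 region is among the most variable of the rat genome, and strains differ in the number of class I genes they carry. Long Evans rats are an outbred stock, and the reference genome is that of the inbred Brown Norway strain.

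The 51 RT1 rows lay on chromosome 20 of mRatBN7.2 between 978940 and 4908911. The 16 rows from RT1-CE16 to RT1-CE1, with RT1-EC2 and RT1-A among them, filled 3257752 to 3559417, and the class II rows lay between 4513485 and 4770244. Tap1, Tap2, Psmb8 and Psmb9 lay among the class II rows and Tapbp lay just beyond RT1-A1. The other listed genes were elsewhere, B2m on chromosome 3 (109095740 to 109101764), Cd74 on chromosome 18 (54256803 to 54266003), Psmb10 on chromosome 19, Erap1 on chromosome 2, Calr3 on chromosome 16 and Ciita on chromosome 10.

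Similar class I genes share reads. Up to 20 alignments per read were allowed at alignment, and the stated counting command named no option for reads with several alignments, which featureCounts then leaves out, so a row counts mainly reads that fit its gene better than its relatives. A mismatch tolerance of 4% of the read also applied, and an allele far from the reference can lose reads or pass them to a neighbouring row. Exons of some rows overlapped on the same strand, where featureCounts leaves reads uncounted. RT1-A shared 326 of its 560 exon bases with RT1-CE7, all 1178 exon bases of RT1-N1 lay in RT1-N2, 275 of the 279 bases of RT1-Cl lay in RT1-M6-1, RT1-T24-4 shared 1267 of 1655 bases with LOC360231, and RT1-Bb shared 792 of 1517 bases with LOC688090. RT1-Cl, RT1-M1-5, RT1-N1 and RT1-Bb had 0 counts in all 12 rats. Sums over class I rows, given below beside the single rows, do not depend on how counted reads were divided among those rows. The sums still lack the reads left uncounted, a part that can differ between rats with their alleles.

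The promoters below show how alike the class I genes are and which elements the families carry. They were read from the RefSeq promoter table of GRCr8, a later build than that of the counts, in which 50 of the 62 genes had an entry. Capitals mark matches, on either strand, to CCAAT, to the interferon-stimulated response element (a pair of GAAA repeats with any 2 bases between them) or to the X box of class II promoters, given by name. CCAAT is the core of the Y box, which NF-Y binds, the X box is bound by RFX, and Ciita is recruited by both. The class II genes shown are RT1-Da at chr20:4515255-4515414 (plus strand), RT1-Ba at chr20:4576897-4577056 (plus strand) and RT1-DOb at chr20:4627524-4627683 (minus strand), each over the 160 bases before its start.
RT1-Da: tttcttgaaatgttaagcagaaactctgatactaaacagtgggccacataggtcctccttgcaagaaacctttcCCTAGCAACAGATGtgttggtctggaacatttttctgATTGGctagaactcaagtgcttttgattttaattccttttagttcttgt
RT1-Ba: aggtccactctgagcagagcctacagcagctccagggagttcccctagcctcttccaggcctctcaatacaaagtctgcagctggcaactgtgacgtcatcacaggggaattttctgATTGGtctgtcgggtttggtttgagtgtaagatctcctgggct
RT1-DOb: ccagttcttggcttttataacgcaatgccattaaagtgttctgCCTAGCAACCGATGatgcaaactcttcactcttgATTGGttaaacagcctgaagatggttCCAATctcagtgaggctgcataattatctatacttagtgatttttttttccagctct
The X box was searched as a single fixed pattern of letters, which was in 0.0179% of the 33469 promoters of the table, 6 in all. Of the 9 class II promoters matched, 3 held it (RT1-Da, RT1-Bb and RT1-DOb). The others, RT1-Ba among them, may hold variant forms, which were not searched. In RT1-Da the X box match lay 86 to 73 bases before the start, and the CCAAT match lay 49 to 45 bases before the start. CCAAT was in 9 of the 9 class II promoters, in 20 of the 32 class I promoters and in 2 of the 8 promoters of processing genes, against 34.0% of all promoters.

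The class I genes shown are RT1-A2 at chr20:4872711-4872870 (plus strand), the classical gene whose level varied little among the rats, and RT1-CE16 at chr20:3265444-3265603 (minus strand), among the most variable. RT1-CE15 at chr20:3283771-3283930 (minus strand) and RT1-T24-3 at chr20:2722965-2723124 (plus strand) had the largest log2 fold changes among the genes tested with all 12 rats.
RT1-A2: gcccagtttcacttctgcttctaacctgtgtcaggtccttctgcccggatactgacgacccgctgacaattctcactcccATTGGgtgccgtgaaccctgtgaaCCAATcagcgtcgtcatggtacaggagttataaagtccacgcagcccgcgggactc
RT1-CE16: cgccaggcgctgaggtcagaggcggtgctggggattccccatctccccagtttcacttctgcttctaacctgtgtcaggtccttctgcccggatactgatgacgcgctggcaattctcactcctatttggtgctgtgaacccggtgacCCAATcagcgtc
RT1-CE15: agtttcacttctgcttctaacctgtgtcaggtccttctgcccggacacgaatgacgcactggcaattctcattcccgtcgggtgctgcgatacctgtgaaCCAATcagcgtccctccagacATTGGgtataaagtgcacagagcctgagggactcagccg
RT1-T24-3: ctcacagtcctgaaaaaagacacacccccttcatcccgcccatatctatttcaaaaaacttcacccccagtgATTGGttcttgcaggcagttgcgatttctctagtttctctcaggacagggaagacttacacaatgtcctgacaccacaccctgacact
RT1-CE16 shared an unbroken run of 54 bases with RT1-A2 and of 53 bases with RT1-CE15. Among the 15 A and C/E promoters matched, 14 shared a run of at least 30 bases with another of the 15 (31 of 105 pairs, median of the longest run over all pairs 21 bases, range 7 to 95). The longest run shared between any of them and a class II promoter was 11 bases. This likeness concerns 250 bases before the start, and the likeness of the exons themselves was not computed here.

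The last pair shows the partners of class I with an interferon response element, B2m at chr3:129549170-129549329 (plus strand) and Tap1 at chr20:4668544-4668793 (minus strand), the latter over 250 bases.
B2m: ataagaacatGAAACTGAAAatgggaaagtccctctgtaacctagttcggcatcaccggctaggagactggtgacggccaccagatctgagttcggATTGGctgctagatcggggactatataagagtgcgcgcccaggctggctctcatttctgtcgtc
Tap1: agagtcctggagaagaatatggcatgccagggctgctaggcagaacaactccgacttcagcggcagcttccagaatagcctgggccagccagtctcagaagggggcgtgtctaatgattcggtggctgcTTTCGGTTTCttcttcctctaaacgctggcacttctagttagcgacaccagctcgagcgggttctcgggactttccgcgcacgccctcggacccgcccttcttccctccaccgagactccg
The exact pattern of paired GAAA repeats was in 3.41% of all promoters and in 8 of the 50 matched here. Those were 5 of the 8 processing genes (B2m, Tap1, Tap2, Tapbp and Psmb10) and the class I genes RT1-S2, RT1-S3 and RT1-N3. Variant forms of this element were not searched, so a promoter without a match, as of the classical and C/E genes, may still hold one. A match is a likeness of letters and was not tested for binding.

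Counts on genes summed to between 10148474 and 40850106 in 11 of the libraries and to 74008 in blast-control rat 6. In rat 6, 57 of the 62 genes had 0 counts and the 41 class I rows together had 3, and the floor taken as detected (3 counts) was 47.5 CPM, the count over the TMM-adjusted library total, in the usual unit. The floors of the other rats were 0.0658 to 0.307 CPM, for counting error only. Levels in CPM below are therefore from the 11 other rats (5 blast-controls and 6 blast-boldine rats) unless rat 6 is named. Log2 fold changes, their SE and counts of higher and lower genes are from the edgeR fit of all 12 rats, rat 6 included, unless stated otherwise. The library names carry 6 suffixes, each on a pair of libraries. The 11 libraries other than rat 6 also fell apart along their first principal component (70.4% of variance). The first set holds rats 1, 7, 9, 20, 32 and 35, and the second set rats 4, 5, 6, 12, 17 and 19. Rat 6 was not in that component, and its place follows from its suffix, which it shares with rat 9. Each set holds each suffix a single time and 3 rats of each treatment. The set accounted for 95.0% of that component, from which the sets were drawn, and treatment for 1.58%. What the sets are is not given in the sources used here, and they were drawn from the values, so differences between them are described without a test. All 6 markers of hippocampal neurons were detected, at a summed level of 1108 to 1539 CPM per rat.

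B2m was the most abundant of the 62 genes, at 93.8 CPM per kb of exon in the mean of 11 rats. It was followed by the class I genes RT1-M3-1 (16.7 CPM per kb) and RT1-M6-2 (16.6), the DM alpha chain RT1-DMa (16.2) and the immunoproteasome subunit Psmb10 (15.6). RT1-M3-1 and RT1-M6-2 are nonclassical class I genes of the M region. The chaperone tapasin (Tapbp, 9.73 CPM per kb), the peptidase Erap1 (9.61) and Cd74 (8.78) came next. Of the classical and C/E genes, RT1-A2 stood highest (6.23 CPM per kb), above RT1-CE5 (4.80) and RT1-CE16 (4.63). The class II peptide-presenting chains were lower, at 2.03 CPM per kb for RT1-Da, 1.58 for RT1-Ba and 1.29 for RT1-Db1. The level of a row whose gene has close relatives is uncertain, since only part of its reads could be counted.

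**Figure D1:**
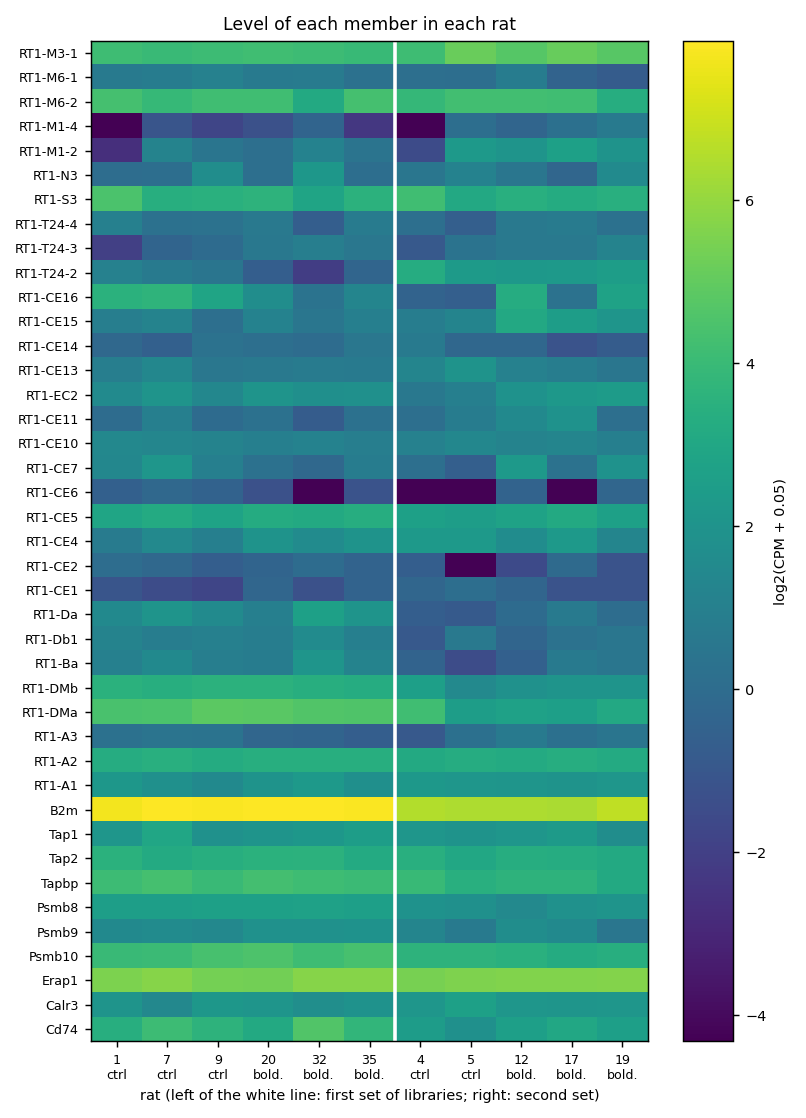
Level of the 41 genes that passed the filter without rat 6, as log2 of CPM plus 0.05 (colour), in each of 11 rats (columns, first set left of the white line, second set right of it). B2m, RT1-DMa, RT1-DMb and Cd74 are lower to the right of the line, and RT1-CE6 and RT1-M1-4 are at 0 in 4 and 2 rats.

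To ask whether boldine in chow went with other levels of these genes, blast-boldine rats were compared with blast-controls. Among the class I rows, RT1-T24-3 was higher in blast-boldine rats, and the classical genes RT1-A1 and RT1-A2, the class II genes and the processing genes overlapped between groups. In edgeR's quasi-likelihood test with all 12 rats, 38 of the 62 genes passed the filter on low counts. None had an adjusted p under 0.05 (smallest adjusted p = 1.0), as for all genes tested (0.0%), and DESeq2 gave none either. At an unadjusted p under 0.05 were 3 genes, RT1-T24-3, RT1-CE15 and RT1-EC2, all higher in blast-boldine rats, and 2 genes were in DESeq2, where 0.542% of all genes were under that limit. Of all 12325 genes tested, 1.07% were under it in edgeR and 0.552% were higher and under it. With the set of libraries as a covariate and without rat 6, 4 of 41 genes were under it, RT1-T24-3 and RT1-EC2 higher and RT1-T24-2 and RT1-CE13 lower, where 5.35% of all genes were, and none had an adjusted p under 0.05 (smallest adjusted p = 0.898). Since the genes were proposed with this comparison known, nothing is read from these counts. By sign, 22 of the 38 were higher and 16 lower, against 51.3% higher among all genes, and 19 and 19 with RLE size factors. The median log2 fold change of the 38 was 0.03, and that of all genes was 0.00. Without rat 6, 41 genes passed the filter, of which 23 were higher and 18 lower. In bulk tissue, fewer cells of a type and less RNA per cell cannot be told apart.

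RT1-T24-3, a nonclassical class I gene of the T region on chromosome 20 from 2718310 to 2725614, stood at 0.198 CPM in rat 1, 0.494 in rat 4, 0.733 in rat 7, 0.917 in rat 9 and 1.23 in rat 5, the 5 blast-controls. The 6 blast-boldine rats lay between 1.39 and 2.23 CPM, with a median of 1.5. Every blast-boldine rat lay above every blast-control, in both sets of libraries. The fold change on the log2 scale was 1.31 (SE 0.37) with all 12 rats, 1.30 (SE 0.39) without rat 6 and 1.34 (SE 0.36) with the set as a covariate and without rat 6. The counts behind it were small, 5 to 14 in blast-controls and 15 to 40 in blast-boldine rats. It was the sole gene of the 41 whose groups did not overlap without rat 6, which held for 0.0798% of all genes tested in this direction and 0.152% in either. The choice of genes used this difference, and it is given as a description.

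The neighbouring T24 rows overlapped between the groups. RT1-T24-4, whose exons overlap another gene, had a log2 fold change of 0.10 (SE 0.31). RT1-T24-2, named here after its values were seen, differed more between the sets than between treatments, at 0.184 to 2.06 CPM in the first set and 4.57 to 9.77 CPM in the second. Within the first set its 3 blast-boldine rats (0.184, 0.586 and 0.746 CPM) lay below its 3 blast-controls (1.33, 1.57 and 2.06 CPM). With the set as a covariate and without rat 6 its log2 fold change was −1.11 (SE 0.31), against −0.53 (SE 0.76) with all 12 rats. RT1-T24-1 did not pass the filter and measured 0.105 to 0.334 CPM in blast-controls and 0.116 to 0.697 CPM in blast-boldine rats.

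RT1-CE15, RT1-EC2 and RT1-CE13, genes of the C/E series, are also named after their values were seen. RT1-CE15 measured 1.08 to 2.25 CPM (median 1.89) in blast-controls and 1.38 to 8.38 CPM (median 3.14) in blast-boldine rats. The high values were those of blast-boldine rats 12, 17 and 19 of the second set (8.38, 5.65 and 4.16 CPM), and the 3 of the first set (1.38, 1.89 and 2.12 CPM) lay within the range of the blast-controls. On the log2 scale the fold change was 1.08 (SE 0.44) with all 12 rats and 0.67 (SE 0.33) with the set as a covariate and without rat 6. RT1-EC2 measured 1.48 to 3.98 CPM (median 2.50) in blast-controls and 3.44 to 5.23 CPM (median 3.89) in blast-boldine rats, with a log2 fold change of 0.66 (SE 0.24). A single blast-control, rat 7, lay within the range of the blast-boldine rats. Exons given to RT1-EC2 run from 3330707 to 3421371, across several other C/E rows, so its reads are hard to assign. RT1-CE13 went the other way, at 1.42 to 3.89 CPM (median 2.37) in blast-controls and 1.39 to 2.08 CPM (median 1.62) in blast-boldine rats, with a log2 fold change of −0.51 (SE 0.24) and groups that overlapped.

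The 5 class I rows of highest mean CPM showed smaller differences. RT1-M3-1 measured 16.2 to 35.4 CPM (median 17.7) in blast-controls and 15.6 to 33.8 CPM (median 22.2) in blast-boldine rats, RT1-M6-2 14.4 to 20.4 CPM (median 18.4) and 8.77 to 20.5 CPM (median 18.4). RT1-S3 measured 8.50 to 22.3 CPM (median 10.9) in blast-controls and 7.16 to 12.04 CPM (median 10.7) in blast-boldine rats. Groups overlapped for all 3, and their log2 fold changes were 0.15 (SE 0.26), −0.17 (SE 0.23) and −0.43 (SE 0.26). RT1-A2, a classical class I gene, measured 8.89 to 10.5 CPM (median 9.53) and 9.01 to 10.4 CPM (median 10.1), with a log2 fold change of 0.06 (SE 0.15). RT1-CE5 measured 5.63 to 9.01 CPM (median 7.0) and 6.31 to 9.85 CPM (median 8.75), with a log2 fold change of 0.24 (SE 0.19). The 2 groups overlapped for both, and RT1-A2 was the steadier, within 8.89 to 10.5 CPM in all 11 rats.

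Summed over the 41 class I rows, the level was 112 ± 8.91 CPM in blast-controls (SD, n = 5 without rat 6) and 113 ± 17.4 CPM in the other group (SD, n = 6). The direction differed between the sets, with 111 ± 9.22 CPM in blast-controls against 99.1 ± 8.26 CPM in blast-boldine rats of the first set (SD, n = 3 each). In the second set the sums were 105 and 122 CPM in the 2 blast-controls and 128 ± 8.03 CPM (SD, n = 3) in blast-boldine rats. The log2 difference of the sums was 0.16 with all 12 rats, 0.01 without rat 6 and 0.00 when averaged over the sets without rat 6. Without rat 6, the class I total thus differed between treatments by less than its SD among rats. The other class I rows that passed the filter had log2 fold changes between −0.69 (RT1-CE16) and 0.89 (RT1-M1-2). The 18 class I rows that did not pass with all 12 rats were each at or under 1.62 CPM in all rats.

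**Figure D2:**
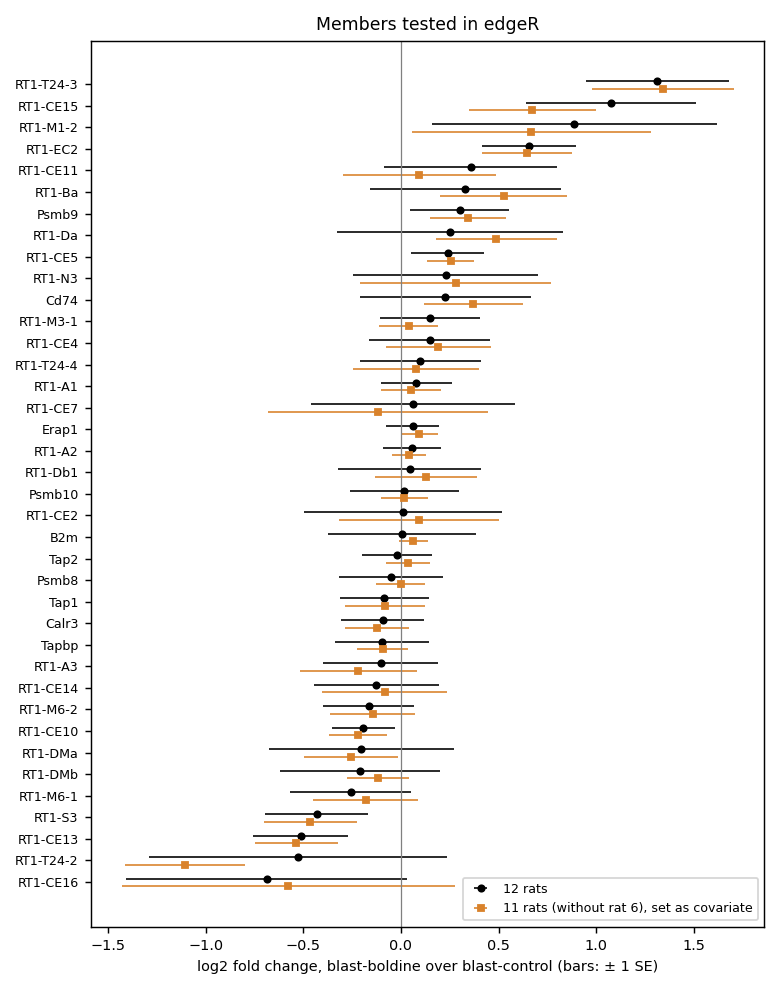
Log2 fold change of blast-boldine over blast-control for the 38 genes tested with all 12 rats (circles) and for the same genes without rat 6 and with the set of libraries as a covariate (squares); bars are ± 1 SE of the edgeR fit. RT1-T24-3 stands at 1.31 and 1.34 in the 2 fits, and RT1-T24-2 at −0.53 and −1.11.

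Class II genes lay at overlapping levels in both groups. RT1-DMa and RT1-DMb form the DM heterodimer that exchanges peptides on class II. RT1-DMa measured 5.63 to 28.8 CPM (median 21.2) in blast-controls and 6.15 to 27.7 CPM (median 16.1) in blast-boldine rats, and RT1-DMb 2.66 to 11.8 CPM (median 10.4) and 3.64 to 11.8 CPM (median 6.89). RT1-Da and RT1-Db1, the chains of the D molecule, measured 0.512 to 4.09 and 0.494 to 2.24 CPM in blast-controls (medians 2.77 and 1.78) and 0.925 to 6.34 and 0.751 to 3.03 CPM in blast-boldine rats (medians 1.76 and 1.59). RT1-Ba, the alpha chain of the B molecule, measured 0.307 to 2.78 CPM (median 1.83) and 0.636 to 4.23 CPM (median 1.67). Their log2 fold changes lay between −0.21 (RT1-DMb) and 0.33 (RT1-Ba) with all 12 rats, each smaller than its SE. With the set as a covariate and without rat 6, RT1-Da had 0.49 (SE 0.31), RT1-Ba 0.53 (SE 0.33) and RT1-DMa −0.25 (SE 0.24), each larger than its SE, and the unadjusted p of all 5 class II genes was over 0.05. The highest value of RT1-Da, RT1-Db1, RT1-Ba and Cd74 was in each case that of blast-boldine rat 32. RT1-DOb and RT1-DOa, whose product restrains DM, RT1-Db2 and RT1-Ha did not pass the filter and were at or under 0.717 CPM in all rats.

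Cd74, the invariant chain, measured 3.58 to 16.8 CPM (median 10.5) in blast-controls and 6.00 to 24.9 CPM (median 8.47) in blast-boldine rats, with a log2 fold change of 0.23 (SE 0.44) with all 12 rats and 0.37 (SE 0.25) with the set as a covariate and without rat 6. Ciita was near the floor, at 0.167 to 0.296 CPM (median 0.219) and 0.135 to 0.846 CPM (median 0.283), and did not pass the filter. The 2 groups overlapped for both genes. Summed over 10 class II rows, blast-controls had 33.5 ± 14.6 CPM (SD, n = 5) and the 6 blast-boldine rats 30.1 ± 16.96 CPM (SD).

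The processing genes of both groups spanned much the same range. B2m measured 86.5 to 244 CPM (median 213) in blast-controls and 85.5 to 249 CPM (median 174) in blast-boldine rats, with a log2 fold change of 0.01 (SE 0.38), and 0.06 (SE 0.07) once rat 6 was left out and the set was a covariate. The transporter subunits Tap1 and Tap2 measured 3.67 to 7.54 and 8.29 to 11.6 CPM in blast-controls (medians 4.26 and 10.3), and 3.15 to 5.57 and 8.70 to 11.8 CPM in blast-boldine rats (medians 4.41 and 9.82). Tapbp measured 10.9 to 20.3 CPM (median 16.0) and 8.77 to 19.8 CPM (median 14.6). For these genes the groups overlapped nearly throughout.

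Psmb8, Psmb9 and Psmb10 are the interferon-inducible catalytic subunits that turn a proteasome into an immunoproteasome. Psmb8 measured 3.48 to 6.34 CPM (median 5.84) in blast-controls and 2.66 to 6.57 CPM (median 4.99) in blast-boldine rats, and Psmb10 12.3 to 20.8 CPM (median 16.2) and 9.32 to 23.4 CPM (median 14.4). Psmb9 measured 1.64 to 3.04 CPM (median 2.58) and 1.39 to 3.73 CPM (median 3.39). Of the 3, Psmb9 had the largest log2 fold change, 0.30 (SE 0.25), and 4 blast-boldine rats lay above all blast-controls while rat 19 lay below them. Erap1 measured 41.4 to 53.4 CPM (median 46.3) and 41.2 to 52.9 CPM (median 51.1), and Calr3, a testis-enriched relative of calreticulin, 2.57 to 6.35 CPM (median 4.34) and 3.35 to 4.39 CPM (median 4.16). Their groups overlapped, with log2 fold changes of 0.06 (SE 0.14) and −0.09 (SE 0.21). Of the 9 processing genes, 4 were higher and 5 lower with all 12 rats, between −0.10 (Tapbp) and 0.30, and 3 were higher and 6 lower without rat 6. The 8 without Calr3 summed to 275 ± 88.8 CPM (SD, n = 5) in blast-controls, against 271 ± 94.7 CPM (SD) in the 6 others.

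Other genes of the pathway were taken from lists of interferon signalling, class II transcription, peptide loading, endosomal processing, MHC-like genes outside RT1 and receptors of MHC molecules. Of 50, 49 were in the table and 42 were tested with all 12 rats, of which 29 were higher and 13 lower, with a median log2 fold change of 0.05. None was under an unadjusted p of 0.05 in edgeR or in DESeq2. With the set as a covariate and without rat 6, 3 were higher and 2 lower at that limit, all 5 of interferon signalling, where 5.35% of all genes were under it, and none had an adjusted p under 0.05. The smallest unadjusted p with 12 rats were those of Irf7, Jak2, Cd4 and Stat2. Irf7, an interferon-induced transcription factor, stood at 2.56 ± 0.754 CPM in blast-controls (SD, n = 5) and at 3.58 ± 0.690 CPM with boldine (SD, n = 6), with a log2 fold change of 0.47 (SE 0.22). The kinase Jak2 had 0.22 (SE 0.12), the coreceptor Cd4 0.34 (SE 0.25) and Stat2 −0.18 (SE 0.14).

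The class II genes that passed the filter and B2m did not overlap between the sets of libraries, while they overlapped between treatments. B2m measured 213 to 249 CPM in the 6 rats of the first set and 85.5 to 109 CPM in the 5 of the second, 2.60-fold more in the mean of the first, in blast-controls and blast-boldine rats alike. RT1-DMa measured 21.2 to 28.8 CPM in the first set and 5.63 to 18.1 CPM in the second, where rat 4 held the 18.1 and the other 4 rats lay at or under 8.39. RT1-Da, at 1.94 to 6.34 CPM against 0.512 to 1.59 CPM, differed 3.98-fold in the means. Without overlap, 10 of the 41 genes were lower in the second set, namely RT1-Da, RT1-Db1, RT1-Ba, RT1-DMb, RT1-DMa, Cd74, B2m, Tapbp, Psmb8 and Psmb10, and RT1-T24-2 alone was higher. Of all genes tested, 23.9% were lower in the second set without overlap and 24.7% were higher. The count of 10 lower genes was near the share among all genes. These 10 held all 6 class II and Cd74 rows that passed, 4 of 9 processing genes and 0 of 26 class I rows. The class I sum was 105 ± 10.4 CPM (SD, n = 6) in the first set and 122 ± 11.6 CPM (SD, n = 5) in the second, and the class II sum 44.3 ± 3.55 CPM and 16.4 ± 5.87 CPM.

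Summed markers of some cell types differed between the sets as well. All 8 microglial markers (Csf1r, Cx3cr1, P2ry12, Tmem119, Aif1, Itgam, Trem2 and C1qa) were detected, and they summed to 333 to 379 CPM in the first set and 141 to 230 CPM in the second, the 230 being again that of rat 4. By treatment the same sum spanned 141 to 360 CPM in blast-controls and 143 to 379 CPM in blast-boldine rats. The sum of 3 blood markers (Hbb, Hba-a1 and Alas2) was also lower in the second set. It spanned 121 to 174 CPM in the first set and 27.0 to 78.0 CPM in the second, where rat 4 was highest. Of the 3, Alas2 alone had the higher mean in the second set (4.10 CPM in the first, 7.52 CPM in the second). The 5 endothelial markers went the other way, summing to 90.2 to 136 CPM in the first set and 211 to 283 CPM in the second. The 6 neuronal markers summed to 1108 to 1270 and 1298 to 1539 CPM. Among them, Prox1, Wfs1 and Zbtb20 had the higher mean in the second set, and Neurod6, Calb1 and Grik4 in the first. Border macrophage and monocyte markers (7 of 7 in the table) were at 11.3 to 21.2 and 13.3 to 18.3 CPM. Among them, Ms4a7 and Ccr2 had only 21 and 10 counts over all 12 rats. Dendritic cell markers (4 of 5 in the table) were at 16.3 to 23.3 CPM in the first set and 22.7 to 28.2 CPM in the second. Nearly all of this sum was Flt3 and Zbtb46 (2807 and 1612 counts over all 12 rats), and Xcr1 and Ccr7 had 8 and 16 counts. T and natural killer cell markers were at 12.7 to 15.1 and 10.1 to 16.8 CPM. Most of this sum was Cd3e, Cd4 and Lck (1274, 848 and 500 counts over all 12 rats). The other members, Cd3d, Cd3g, Cd2, Cd8a, Nkg7 and Gzmb, had 8 to 19 counts each. B cell markers (3 of 4 in the table) were at or under 0.691 CPM in every rat. Choroid plexus markers varied by rat in both sets, from 7.77 to 1147 CPM. The part of these cell types in the differences of MHC genes was not tested.

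**Figure D3:**
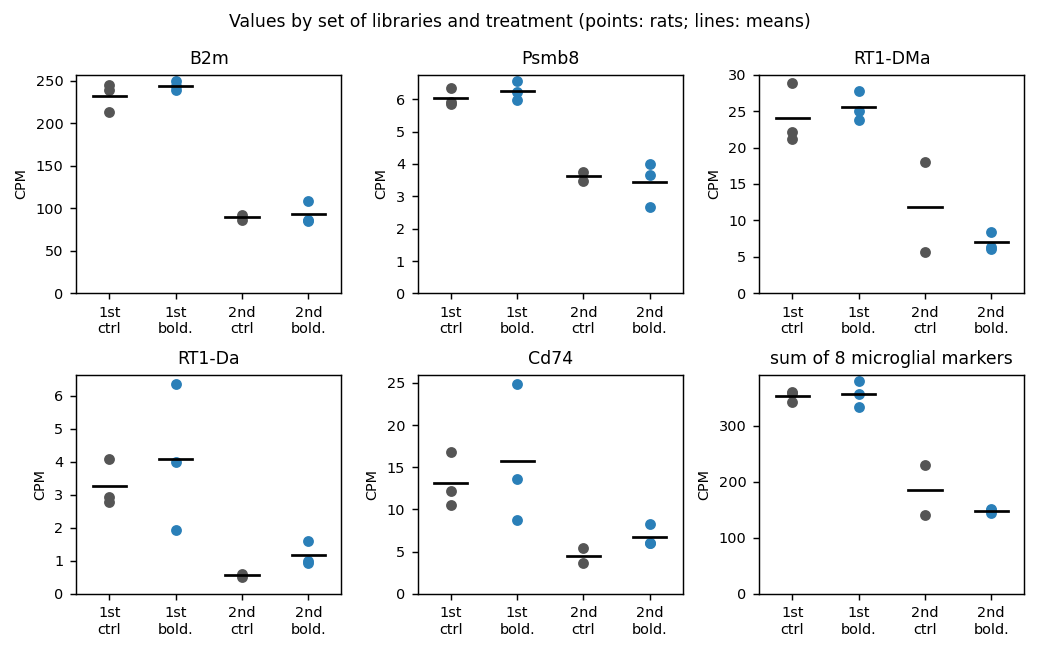
CPM of B2m, Psmb8, RT1-DMa, RT1-Da, Cd74 and the sum of 8 microglial markers in blast-control (grey) and blast-boldine (blue) rats of the first and second set of libraries, without rat 6; points are rats and lines are means of 3 rats, or of 2 for blast-controls of the second set. B2m lies at 213 to 249 CPM in the first set and 85.5 to 109 CPM in the second, and rat 4 is the high blast-control of the second set for RT1-DMa and for the microglial markers.

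Class I rows differed strongly between rats once treatment and set were fitted as additive terms, a measure that does not use the boldine contrast. A difference between treatments that changes from set to set counts as spread in this measure. In the fit with treatment and set and without rat 6, edgeR's dispersion, which is the variance among rats over the squared mean once counting error is taken off, had a median of 0.0587 over the 41 genes and 0.0173 over all 12529 genes tested. Of the 41, 16 (39.0%) were in the top 5% of dispersion, where by construction 5.0% of all genes lie. These were 12 class I rows, 4 of the 6 class II and Cd74 rows and 0 of the 9 processing genes. B2m (dispersion 0.00892) and RT1-A2 (0.0106) were at the low end. Genes were not matched for level in this ranking. Counts over all rats were 38422 for B2m and 1966 for RT1-A2, and 91 (RT1-CE6) to 1261 (RT1-CE16) for the rows named next. The 6 rows of highest dispersion were all class I, RT1-CE6 (0.908, rank 36 of all genes), RT1-CE16 (0.677, rank 50), RT1-M1-4 (0.503, rank 66), RT1-M1-2 (0.469, rank 68), RT1-CE7 (0.348, rank 89) and RT1-N3 (0.268, rank 118).

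RT1-CE6, RT1-CE16 and RT1-CE7 were low in the same rats. RT1-CE6, a row of a single exon from 3460979 to 3461929, had 0 counts in rats 4, 5, 17 and 32 and 8 to 29 counts (0.361 to 0.838 CPM) in the 7 others. In the 4 rats at 0 the floor of 3 counts was 0.296, 0.307, 0.298 and 0.138 CPM. RT1-CE16 measured 0.614 to 1.24 CPM in those 4 rats and 2.39 to 12.5 CPM in the 7 others, and RT1-CE7 0.614 to 1.19 CPM and 1.13 to 4.91 CPM. The separation was complete for RT1-CE16, and RT1-CE7 overlapped by the value of rat 20. RT1-A2 and RT1-CE5 did not part the same rats, at 8.89 to 10.4 against 9.01 to 10.5 CPM and 5.63 to 8.83 against 6.31 to 9.85 CPM. The 4 rats comprise 2 blast-controls and 2 blast-boldine rats, 3 of them in the second set.

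By group, RT1-CE16 measured 0.614 to 12.5 CPM (median 7.09) in blast-controls and 1.19 to 9.59 CPM (median 2.82) in blast-boldine rats, RT1-CE7 0.614 to 4.30 CPM (median 1.92) and 0.827 to 4.91 CPM (median 1.47), and RT1-CE6 0.00 to 0.838 CPM (median 0.637) and 0.00 to 0.770 CPM (median 0.379). With the sets pooled, the groups overlapped over nearly their whole range. Within each set they did not overlap for RT1-CE16 or RT1-CE7, and the direction was opposite in the 2 sets. RT1-CE16 measured 7.09 to 12.5 CPM in blast-controls and 1.24 to 3.25 CPM in blast-boldine rats of the first set. In the second set it measured 0.614 to 0.691 CPM and 1.19 to 9.59 CPM. This split was made after the values were seen and was not tested.

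A second pattern joined rows of the M1, S and T24 groups in rats 1 and 4. RT1-M1-4 had 0 counts in rats 1 and 4 and 3 to 21 counts (0.149 to 1.62 CPM) in the 9 others, and RT1-M1-2 measured 0.110 and 0.296 CPM in those rats and 1.08 to 6.25 CPM in the 9 others. RT1-S3 was highest in the same pair, at 22.3 and 18.3 CPM against 7.16 to 12.04 CPM. RT1-T24-3 was lowest there, at 0.198 and 0.494 CPM against 0.733 to 2.23 CPM, and RT1-T24-2 was the highest of each set there, at 2.06 and 9.77 CPM. Both rats are blast-controls, from different sets, so the low values of RT1-T24-3 in blast-controls include the rats that stood apart in 4 other class I rows. Among the 9 other rats, the 3 blast-controls measured 0.733, 0.917 and 1.23 CPM and the 6 blast-boldine rats 1.39 to 2.23 CPM. These rows were set side by side after their values were seen.

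By group, RT1-M1-4 measured 0.00 to 1.02 CPM (median 0.250) in blast-controls and 0.149 to 1.62 CPM (median 0.743) in blast-boldine rats, and RT1-M1-2 0.110 to 4.81 CPM (median 1.33) and 1.08 to 6.25 CPM (median 3.04). RT1-N3 measured 0.988 to 3.17 CPM (median 1.38) and 0.793 to 4.55 CPM (median 1.23). RT1-N3 was at or above 2.15 CPM in rats 5, 9, 19 and 32 and at or under 1.39 CPM in the 7 others, and RT1-N2, next to it, was at 0.512 to 1.15 CPM in the same 4 rats and at or under 0.249 CPM elsewhere. The 4 rats were again 2 of each treatment and 2 of each set.

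**Figure D4:**
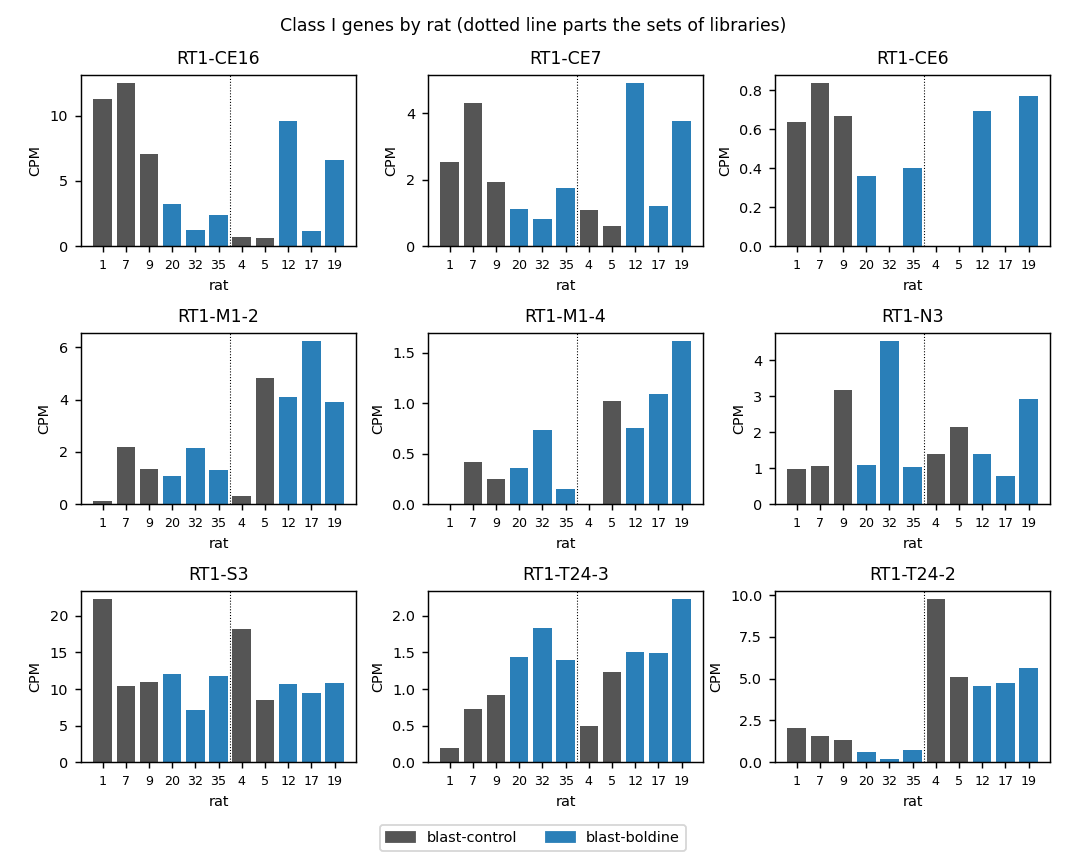
CPM of 9 class I rows in each of 11 rats, blast-controls in grey and blast-boldine rats in blue, with the first set left of the dotted line and the second set right of it. RT1-CE6 is at 0 in rats 32, 4, 5 and 17, in which RT1-CE16 and RT1-CE7 are low, and RT1-M1-4 is at 0 in rats 1 and 4, in which RT1-S3 is highest and RT1-T24-3 lowest.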

How the data were processed

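Stranded libraries, 1 for each rat, were made from total RNA depleted of ribosomal RNA. Duplicate removal and trimming were done by the authors with HTStream, alignment with STAR 2.7.11b on mRatBN7.2, and counting on exons of RefSeq genes by name and strand with featureCounts (Subread 2.0.1). The deposited values are these counts, whole numbers without normalization, with exon positions and the exon length of each gene in other columns. A total of 0 columns belonged to other samples.

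Counts were scaled to CPM with TMM and tested with edgeR 4.0.16 (quasi-likelihood test, treatment as the only term, filterByExpr with a minimum of 10 counts, two-sided, Benjamini-Hochberg over all genes) in R 4.3.3. The study's methods name DESeq2, used here as an alternative (1.42.0), beside RLE size factors, other filters, the set of libraries as a covariate and leaving out each rat. The edgeR step was run on simulated counts with the same dispersion for all genes, without rat 6 and without a difference between sets. Only genes of higher counts were changed in it, so it does not speak for rows of a few counts. Tables and plots used Python 3.11.15. The genes, lists and sets of libraries were chosen with earlier results of these data known. Genes named with group values were RT1-T24-3, the listed partners, the class I rows of highest mean, the tested class II rows and the 6 rows of highest dispersion, and other rows were named after their values were seen. Promoters came from RefSeq (GRCr8).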

Additional observations from a re-analysis of the deposited data

Results flagged for a closer look

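Among 114 groups of 5 or 6 rats checked for a highest or lowest rat that stood apart from the others by more than Dixon's critical value, 10 were found, where chance gives about 1 in 20. Of these, 5 were values of rat 6, with 74008 counts, namely RT1-M6-2 at 31.7 CPM (2 counts), Tap2 at 31.7 CPM (2 counts) and Erap1 at 79.2 CPM (5 counts) as the highest blast-control, and RT1-CE10 and RT1-A2 at 0 CPM as the lowest. The other 5 were RT1-M3-1 at 35.4 CPM in blast-control rat 5, highest with and without rat 6, RT1-A3 at 0.494 CPM in blast-control rat 4, Tap1 at 7.54 CPM in blast-control rat 7 and Erap1 at 41.2 CPM in blast-boldine rat 20, the last as the lowest of its group. RT1-M3-1 was at 26.5 to 33.8 CPM in the blast-boldine rats of the same set as rat 5.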

How the results depend on the processing

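No alternative gave an adjusted p under 0.05 for any of these genes. Against 22 higher and 16 lower genes with all 12 rats, 32 were higher and 26 lower without a filter on low counts, and 26 were higher and 32 lower in DESeq2, so the balance turned in DESeq2. Among all 15690 genes tested in DESeq2, 6359 were higher and 9331 lower, against 6323 and 6002 of 12325 in edgeR. The turn was thus not particular to these genes, and its cause was not tested. Leaving out each rat in turn gave 14 to 24 higher and 13 to 23 lower, and the 14 came without blast-boldine rat 32, which had the highest RT1-Da, RT1-Db1, RT1-Ba and Cd74. The log2 differences of the sums ranged, over leaving out each rat, from 0.01 to 0.23 for class I, from −0.16 to 0.32 for class II and from −0.05 to 0.15 for processing genes, all within the spread between rats. Of 38 genes, 18 kept their sign over all 17 alternatives, and RT1-T24-3 lay between 0.97 and 1.59 (log2). With treatment as the only term and 12 rats, 7 genes were in the top 5% of dispersion, against 16 with the set as a term and without rat 6. A minimum of 10 counts in every rat left none of these genes, since rat 6 was under it for all. No paired analysis was possible because the groups share no replicate numbers. Depth limits rows of a few counts, such as RT1-CE6, RT1-M1-4 and Ciita, and the class I exons' likeness was not measured.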
